A study of Mus musculus with 4 samples.

Results

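The 4 genes of the MiT-TFE family, Mitf, Tfec, Tfeb and Tfe3, and 2 related basic helix-loop-helix genes, Bhlhe40 and Bhlhe41, were followed through single-cell libraries of CSF1R+ myeloid cells from the mouse heart. They were picked by gene symbol, and earlier results of these data were known when they and the gene lists below were chosen. The shares of members and list genes that passed are therefore a description, not independent support. All 6 were found among the 31053 genes of the count tables, and all 6 were among the 18865 genes present in at least 3 cells.

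The cells came from CSF1R-EGFP mice, whose EGFP is under the control of the Csf1r promoter, and were sorted as EGFP+ after Ly6G+ neutrophils had been excluded. Baseline consisted of a single pool of 3 hearts from mice without surgery, sequenced as 1 library. For infarct, 3 hearts were collected on day 7 of a permanent left coronary ligation and sequenced as 3 separate libraries, with the remote zone of the ventricle removed before digestion. All mice carried the same reporter and were 12 to 16 weeks old, and no other allele or agent separated the groups.

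After filtering, the libraries held 10117 to 10782 cells. The median was 6398.5 unique molecular identifiers (UMIs) per cell at baseline and between 8469.5 and 8556.5 in the infarct libraries. Pairs of libraries shared 26 to 34 cell barcodes, 0.332% or less of the smaller library. Levels are given as CPM, the UMIs of a gene per 1000000 UMIs of the summed cells with mitochondrial genes left out. Where several types are pooled in a sum, fewer cells of a type and less RNA per cell cannot be told apart.

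MiT-TFE proteins bind E-box DNA as dimers and switch on lysosomal and autophagy genes through sites known as CLEAR elements. Mitf, Tfeb and Tfe3 are held in the cytoplasm when mTORC1 phosphorylates them on the lysosome through the Rag, Ragulator and folliculin proteins, so that their transcript levels do not show how much protein is in the nucleus. Mitf also drives the osteoclast programme and Gpnmb, a glycoprotein of lysosomes and of the macrophage surface. Bhlhe40 and Bhlhe41 are repressors that bind E-boxes too, act on the circadian clock, and help to maintain tissue macrophages.

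Mitf lies at chr6:97807052-98021349 on the plus strand of GRCm38. Tfec is at chr6:16833373-16898441 on the minus strand. Tfeb spans chr17:47737030-47792419 and Tfe3 spans chrX:7762560-7775202, both on the plus strand. Bhlhe40 is at chr6:108660629-108666925 on the plus strand, and Bhlhe41 at chr6:145858243-145865558 on the minus strand. No other annotated gene overlapped a member on its own strand. Mitf, Bhlhe40 and Bhlhe41 were each overlapped by 1 gene on the opposite strand, Gm15531, 0610040F04Rik and Gm43909. The counting tool uses strand by default, and the setting was not given in the sources used here.

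The core E-box, CACGTG, was sought on both strands in RefSeq promoters of GRCm38.p6, running from 250 bases before to 50 bases after a start site. It was in 2349 of 32851 promoters, or 7.15%. Among 10 promoters matched to 5 of the 6 members, it was in 1, that of Bhlhe41. The sequence just upstream of Bhlhe41 on its minus strand, chr6:145865559-145865670, is shown because it holds that E-box, in capitals, 153 bases before the RefSeq start. The stretch shown ends at the base next to the GENCODE gene end given above.
Bhlhe41: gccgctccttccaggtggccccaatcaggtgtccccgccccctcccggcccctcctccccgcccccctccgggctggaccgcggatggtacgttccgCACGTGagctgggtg

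Of 38 lysosomal and autophagy genes listed as CLEAR targets, 28 had a promoter, and 13 of these 28 held a CACGTG. Of 19 genes with a promoter that act in the lysosomal control of MiT-TFE proteins, 6 held it. It was not particular to these 2 lists. Among genes with a promoter, 6 of 14 other E-box factors and 4 of 14 clock genes held it, beside 8.09% of all genes. The windows below belong to genes that differed with Gpnmb in the infarct macrophages, described further on. They are Ctsd, the aspartic protease cathepsin D (2 sites, chr7:142388057-142388077 and chr7:142387910-142387935, minus strand), Rragc, a Rag GTPase (chr4:123917311-123917336, plus strand), Fnip1, a folliculin partner (chr11:54438094-54438119, plus strand), and Lamtor1, a Ragulator subunit (chr7:101905759-101905784, plus strand). Each of these genes was higher with Gpnmb. Mlxipl, which was lower with Gpnmb, also held a CACGTG, 98 bases before its start (chr5:135089782-135089807, plus strand), not printed here. Capitals mark the E-box.
Ctsd, 245 bases before the start: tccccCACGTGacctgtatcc
Ctsd, 98 bases before the start: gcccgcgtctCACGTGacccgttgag
Rragc, 112 bases before the start: tgattccgggCACGTGatagtaccac
Fnip1, 75 bases before the start: agtttgctgcCACGTGatacggctcg
Lamtor1, 68 bases before the start: gccttcctatCACGTGccgcgggtcc

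The M-box TCATGTG was in 3.77% of all promoters and in 0 of the 10 of the members. By gene, the M-box was in 5 of 28 of the CLEAR list and 3 of 19 of the lysosomal control list, beside 4.31% of all genes. It was in 1 of 5 osteoclast genes, 0 of 14 clock genes and 0 of 14 other E-box factors. The longer CLEAR sequence, also sought, was in 0.326% of all promoters and in 0 of 31 of the CLEAR list. It was in 0 promoters of the members and of the other lists. The windows printed above thus hold the core E-box, not the longer CLEAR sequence. Gpnmb itself, at chr6:49036546-49070929, had 1 promoter, with none of these motifs. A match is a string of letters in the window, not a measured binding site.

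Myeloid types were gated by marker lists, and none of the 6 members was in a list. Macrophages were cells with at least 30 UMIs of C1qa, C1qb and C1qc per 10000, and numbered 6629 at baseline and 7792, 8979 and 8322 in infarct replicates 1, 2 and 3. Of 40 genes kept aside to check the gates, 33 were raised over 2-fold in all 4 libraries. The exceptions were Cd68 and Fcgr1 in macrophages, Igf1 and Cd9 in reparative-like, Retnla in resident-like and Cxcl3 in Saa3-Arg1 macrophages, and Ccr2 in type 2 dendritic-like cells. The reparative-like gate uses Gpnmb with Spp1, Trem2, Gdf15 and Fabp5. It held 88 baseline cells and 2122, 3210 and 2561 infarct cells. Resident-like macrophages (Lyve1, Cd163, Timd4, Folr2, Cbr2) went the other way, with 3041 at baseline and 111, 103 and 143 after infarction. Saa3-Arg1 macrophages numbered 11 at baseline, and 1140, 88 and 659 in infarct replicates 1, 2 and 3, so that replicate 2 stood apart.

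At 2000 UMIs per cell, Mitf was found in 9.63% of 29498 macrophages and in 2.08% of 144 B-cell-like cells, which should lack most macrophage genes. Tfec was found in 2.87% of the macrophages and in 0 of the 144 B-cell-like cells. Taking 3 cells as the floor, the share there could be 2.08% for counting error alone. That floor is not the exact binomial interval. Before thinning, 172 B-cell-like cells held 4 Tfec UMIs. For Tfe3 the shares were 12.5% and 4.86%, and for Bhlhe41 they were 3.12% and 1.39%. Tfeb (5.88% and 11.8%) and Bhlhe40 (4.15% and 9.03%) were no more frequent in macrophages than in B-cell-like cells. Expression of both genes in B-cell-like cells themselves was not tested. This comparison therefore cannot tell expression from background in macrophages as a whole. Gpnmb was found in 1 of 8 B-cell-like cells of infarct replicate 2 and in 5 of 35 of replicate 3. It was found in 0 of 20 of replicate 1 and 0 of 81 at baseline. Median depth before thinning was 6602 to 8685.5 UMIs in macrophages and 2668 to 6902.5 in B-cell-like cells.

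To ask where each factor is expressed after infarction, each of 11 types was compared with all other gated myeloid cells of the same 3 hearts (edgeR quasi-likelihood with the library as block, threshold of 0.01 for p-values adjusted by Benjamini-Hochberg across the whole gene set). Of 66 pairs of member and type, 34 passed, 12 higher and 22 lower. Across all genes, 22.6% of gene and type pairs passed, 10.8% higher and 11.8% lower, with 12.0% in resident-like macrophages and 34.3% in type 2 dendritic-like cells as the extremes. The members passed in 51.5% of their pairs, and 22 of the 34 calls held when each heart was left out in turn. Cells were also thinned to 2000 UMIs, with shallower ones left out and the types gated again on the thinned counts. Of the 34 calls, 13 were then lost and 1 further pair passed, which made 22. Depth and the cells of a type both change there and cannot be told apart.

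By type, the members' calls were set beside the share of all genes tested there. In reparative-like macrophages 3 members were higher and 1 lower, where 10.9% of genes were higher and 14.2% lower (25.1% in all). In Saa3-Arg1 macrophages 3 were higher and 1 lower (13.7% and 12.1% of genes, 25.8% in all). In resident-like macrophages 1 was higher (5.27% higher and 6.74% lower, 12.0% in all), and in interferon-response-like macrophages 1 was higher and 1 lower (8.05% and 4.74%, 12.8% in all). Other C1q-high macrophages (11.4% and 15.2%, 26.6% in all) and proliferative-like macrophages (14.0% and 10.5%, 24.5% in all) each had 3 members lower. The calls outside macrophages were mostly falls. Non-classical monocyte-like cells had 2 members higher and 3 lower (10.5% and 12.0%, 22.5% in all), and classical monocyte-like cells had 2 lower (14.0% and 14.4%, 28.5% in all). Type 2 dendritic-like cells had 1 higher and 4 lower (16.2% and 18.0%, 34.3% in all), mature dendritic-like cells 1 higher and 3 lower (10.4% and 13.4%, 23.8% in all), and granulocyte-like cells 1 lower (4.49% and 8.42%, 12.9% in all). With 6 members a type, each of these shares rests on few genes.

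Mitf, the osteoclast and melanocyte regulator, rose in 3 macrophage types and fell in monocyte-like, dendritic-like and proliferative-like cells. In reparative-like macrophages its level was 57.8, 52.9 and 58.6 CPM in infarct replicates 1, 2 and 3, against 44.2, 36.0 and 45.7 CPM in the other myeloid cells. The groups did not overlap, and the log2 difference was 0.51 ± 0.05 (SE, n = 3, adjusted p = 0.000167). Resident-like macrophages had 69.4, 61.4 and 76.9 CPM, and their difference of 0.45 ± 0.13 (adjusted p = 0.00802) was lost without replicate 1 (0.053) or replicate 3 (0.16). Saa3-Arg1 macrophages had 71.03, 59.9 and 61.5 CPM. Their difference of 0.44 ± 0.11 (adjusted p = 0.0061) was lost with any heart left out, at adjusted p = 0.115, 0.0215 and 0.0189 without replicates 1, 2 and 3.

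Dendritic-like cells were lowest for Mitf. Type 2 dendritic-like cells (Cd209a, Clec10a, Flt3, Klrd1) had 7.33, 12.1 and 8.54 CPM, 2.40 ± 0.17 below the other cells on the log2 scale (adjusted p = 3.19e-09). Mature dendritic-like cells (Ccr7, Fscn1) had 7.42, 17.9 and 4.58 CPM from 10 UMIs, a fall of 2.23 ± 0.39 on that scale (adjusted p = 1.49e-07). Non-classical monocyte-like cells differed by a log2 value of -2.07 ± 0.30 and classical monocyte-like cells by -1.06 ± 0.10. Proliferative-like macrophages, at 35.7, 26.1 and 33.9 CPM, differed by -0.64 ± 0.10 (adjusted p = 0.000613), a call lost without replicate 2 (0.014). In order of infarct mean, resident-like (69.2 ± 7.76 CPM, SD) and Saa3-Arg1 macrophages (64.1 ± 6.04) overlapped, and both lay above reparative-like macrophages (56.5 ± 3.07). The other neighbours in that order overlapped.

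Tfec, the family member best known from macrophages, was close to absent from dendritic-like and non-classical monocyte-like cells. Saa3-Arg1 macrophages had 20.6, 31.0 and 36.4 CPM, against 15.5, 16.0 and 16.6 CPM in the other cells. The difference of 0.75 ± 0.15 on the log2 scale (adjusted p = 0.00121) was lost without replicate 2 (0.014) or replicate 3 (0.0479). Reparative-like macrophages had 18.8, 19.3 and 21.7 CPM and were higher by 0.45 ± 0.06 (adjusted p = 0.000601). That call did not pass with cells thinned to 2000 UMIs and gated again (0.119). Interferon-response-like macrophages (Cxcl10, Ifit3, Rsad2) had 20.3, 21.7 and 20.6 CPM. They were higher by 0.50 ± 0.10 (adjusted p = 0.0022), a call lost without replicate 2 (0.0291) or without the library block (0.0155). Macrophages that passed the C1q gate and no subtype gate, called other C1q-high macrophages below, had 11.1, 12.4 and 13.4 CPM, lower by a log2 difference of -0.67 ± 0.06 (adjusted p = 8.62e-05).

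In type 2 dendritic-like cells Tfec had 3 UMIs over the 3 hearts, which is 2.79% of its level in the other cells (95% counting interval 0.576% to 8.17%, adjusted p = 1.13e-08). Non-classical monocyte-like cells had 2 UMIs, 8.84% of the level elsewhere (1.07% to 32.0%, adjusted p = 9.77e-07). Mature dendritic-like cells had 1 UMI, 5.72% of the level elsewhere (0.145% to 31.9%, adjusted p = 8.8e-05), and that call was lost without replicate 1 (0.0441). Classical monocyte-like cells, in contrast, had 30.7, 23.7 and 16.2 CPM, which overlapped the macrophage types and did not pass (adjusted p = 0.0428). By infarct mean, the types from Saa3-Arg1 (29.3 ± 7.99 CPM) to other C1q-high macrophages (12.3 ± 1.16) overlapped with their neighbours, and a gap followed before the types with 3 UMIs or fewer.

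Tfeb, the lysosomal regulator of the family, stood out in non-classical monocyte-like cells (Ace, Treml4, Cd300e, Spn, Adgre4). They had 93.9, 67.2 and 59.2 CPM, against 34.1, 29.2 and 30.0 CPM elsewhere. The difference was 1.13 ± 0.19 on the log2 scale (adjusted p = 4.86e-08) and passed in all 12 alternatives tried for it. The baseline level there was 67.1 CPM (95% counting interval 60.3 to 74.5), within the range of the infarct hearts. Proliferative-like macrophages had 22.4, 23.4 and 18.8 CPM and a difference of -0.61 ± 0.12 (adjusted p = 0.00214), lost without replicate 1 (0.0122) or replicate 3 (0.0104). The other 9 types did not pass. Their infarct means ran from 20.1 ± 9.46 CPM in mature dendritic-like to 33.0 ± 7.04 CPM in classical monocyte-like cells, each overlapping its neighbour.

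Tfe3 passed in 2 of 11 types, lower in both. Its infarct means ran from 24.1 CPM in mature dendritic-like cells to 83.0 CPM in resident-like macrophages. It was lower in type 2 dendritic-like cells, at 39.4, 27.1 and 39.7 CPM against 64.2, 56.3 and 60.9 CPM elsewhere (log2 difference -0.77 ± 0.11, adjusted p = 2.06e-05). Mature dendritic-like cells had 33.4, 25.1 and 13.7 CPM (log2 difference -1.16 ± 0.29, adjusted p = 0.000335), a call lost without replicate 3 (0.0134). Resident-like macrophages had the highest mean, with 77.3, 83.0 and 88.5 CPM. They did not overlap other C1q-high macrophages, the next type by mean, but granulocyte-like cells reached 83.1 CPM in replicate 3. Their difference of 0.35 ± 0.12 did not pass (adjusted p = 0.036), but did with library totals in place of TMM scaling (0.48, adjusted p = 0.00249).

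Bhlhe40, a repressor induced in activated lymphocytes and myeloid cells, had a pattern opposite to that of Mitf in dendritic-like cells. Mature dendritic-like cells had 497, 494 and 458 CPM, against 58.2, 22.3 and 37.7 CPM elsewhere. The log2 difference of 3.73 ± 0.16 (adjusted p = 1.7e-111) was the highest of the 66 pairs. Type 2 dendritic-like cells had 236, 196 and 192 CPM (2.58 ± 0.15, adjusted p = 1.49e-10). Saa3-Arg1 macrophages, gated on Saa3, Arg1, Marco and Fn1, had 184, 112 and 171 CPM (2.24 ± 0.12, adjusted p = 7.16e-09). Non-classical monocyte-like cells had 120, 120 and 148 CPM (1.67 ± 0.16, adjusted p = 5.76e-24). All 4 calls passed in every alternative tried for them.

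Bhlhe40 fell in the remaining C1q-high types that passed. Other C1q-high macrophages had 29.6, 13.6 and 15.2 CPM, against 81.0, 31.5 and 57.1 CPM elsewhere (log2 difference -1.49 ± 0.10, adjusted p = 3.83e-05). Interferon-response-like macrophages differed by -0.96 ± 0.12 (adjusted p = 3.29e-05), and both calls were lost without the block, at adjusted p = 0.0386 and 0.105. Reparative-like macrophages had 26.6, 19.9 and 19.2 CPM and a difference of -0.995 ± 0.18 (adjusted p = 0.00377). That call was lost without replicate 3 (0.0225), without the block (0.0446) and against all remaining macrophage types pooled (0.0885). The pool includes Saa3-Arg1 macrophages.

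Resident-like macrophages split by heart for Bhlhe40. Infarct replicates 1 and 3 had 75.1 and 76.1 CPM, while replicate 2 had 3.61 CPM from 3 UMIs and baseline had 4.22 CPM. Saa3 in the same resident-like cells was 305 and 160 CPM in replicates 1 and 3 and 7.22 CPM in replicate 2, and Arg1 was 284, 184 and 21.7 CPM in replicates 1, 3 and 2. The part of Saa3-Arg1 cells or their free RNA in this Bhlhe40 level was not tested.

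Bhlhe41, the paralogue of Bhlhe40, rose in 1 type. Reparative-like macrophages had 28.8, 25.3 and 24.7 CPM, against 10.5, 12.2 and 11.8 CPM in all other myeloid cells. The difference of 1.27 ± 0.09 (log2, adjusted p = 3.76e-05) passed in all 13 alternatives, and no other type overlapped this range. Interferon-response-like (20.3, 16.0 and 20.9 CPM) and resident-like macrophages (21.6, 15.6 and 14.9 CPM) came next and overlapped, and neither passed. Other C1q-high macrophages had 12.8, 13.8 and 13.3 CPM (-0.41 ± 0.05, adjusted p = 0.000665). That call did not pass without the block (0.0206). Saa3-Arg1 macrophages differed by -0.70 ± 0.15 (adjusted p = 0.00206, lost without replicate 3 at 0.0383) and proliferative-like macrophages by -0.71 ± 0.14 (adjusted p = 0.00281). The proliferative call was lost with any heart left out, at 0.0136, 0.0241 and 0.0102 without replicates 1, 2 and 3.

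Outside macrophages Bhlhe41 was near 0. Type 2 dendritic-like cells had 0 UMIs in the 3 infarct hearts, at least 34.3-fold lower than elsewhere, taking 3 UMIs over the group as the floor (adjusted p = 2.16e-08). Classical monocyte-like cells had 0.603, 0.423 and 0.352 CPM from 7 UMIs (log2 difference -5.08 ± 0.25, adjusted p = 7.59e-06). Non-classical monocyte-like cells had 1 UMI, 4.61% of the level elsewhere (0.117% to 25.7%, adjusted p = 2.4e-07). Granulocyte-like cells also had 1 UMI, 9.66% of the level elsewhere (0.245% to 53.9%, adjusted p = 0.00447), and that call was lost with any heart left out, at 0.0921, 0.0122 and 0.192 without replicates 1, 2 and 3.

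**Figure D1:**
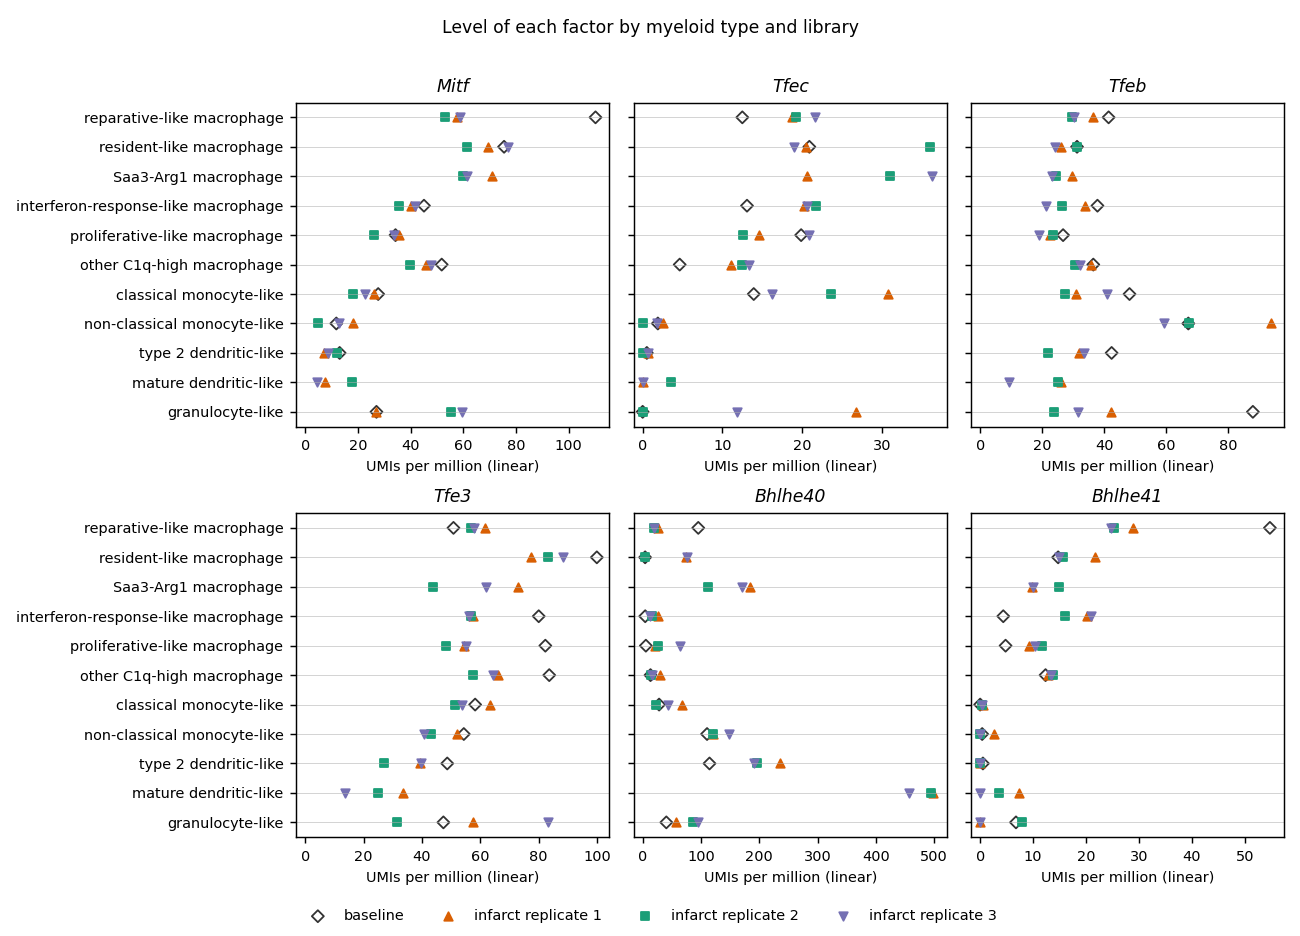
Level of each factor in CPM (linear axis) in 11 gated types, with 1 symbol per library and sums of under 20 cells not drawn. Bhlhe41 is highest in reparative-like macrophages, Bhlhe40 in mature dendritic-like cells (458 to 497 after infarction) and Tfeb, among infarct sums, in non-classical monocyte-like cells.

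Scaling moved the balance of calls over all genes in some types. With library totals in place of TMM, the genes called higher and lower went from 1429 and 1853 to 982 and 2537 in reparative-like, from 678 and 866 to 962 and 582 in resident-like, from 1055 and 621 to 761 and 1603 in interferon-response-like, and from 569 and 1067 to 830 and 730 in granulocyte-like cells. The median gene moved by over 0.1 on the log2 scale in 3 of these, from -0.04 to 0.09 in resident-like, from -0.03 to -0.17 in interferon-response-like and from -0.32 to -0.05 in granulocyte-like cells. The 34 called members kept their sign under that scaling, with reparative-like Bhlhe41 at 1.19 and Mitf at 0.43. Under it 2 of the 34 calls were lost, Bhlhe41 in granulocyte-like cells (adjusted p = 0.0145) and Tfec in interferon-response-like macrophages (0.0169). With the DESeq2 Wald test 7 were lost, at adjusted p-values of 0.0106 to 0.0622. They were these 2, Mitf in Saa3-Arg1 and resident-like macrophages, Bhlhe40 in reparative-like macrophages, and Tfec and Tfe3 in mature dendritic-like cells.

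The macrophages of each infarct heart were then divided by Gpnmb itself. C1q-high macrophages were thinned to 2000 UMIs each, shallower ones being left out, and split by the presence of a Gpnmb UMI, which gave 934 and 6388 cells with and without it in replicate 1, 1052 and 7443 in replicate 2, and 1158 and 6417 in replicate 3. Of 10840 genes tested, 9.55% passed, 5.13% higher and 4.42% lower in the cells with Gpnmb. Among the 6 members, 3 passed, all higher. They were Bhlhe41, Tfec and Mitf. With library totals, the genes called higher and lower went from 556 and 479 to 442 and 651, and the same 3 members were called.

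Bhlhe41 was at 30.7, 25.3 and 29.1 CPM in macrophages with Gpnmb and at 17.7, 16.8 and 15.8 CPM in those without, in replicates 1, 2 and 3. The groups did not overlap (28.4 ± 2.82 against 16.8 ± 0.948 CPM, SD, n = 3). The log2 difference was 0.81 ± 0.13 (SE, adjusted p = 0.00021), higher in 3 of 3 hearts. It passed in 18 of 19 alternatives, without the block among them (adjusted p = 0.00354). The exception was the set of macrophages that pass no subtype gate, where the difference was 0.71 (adjusted p = 0.768).

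Mitf was at 66.5, 55.0 and 72.6 CPM with Gpnmb and at 53.2, 45.1 and 50.8 CPM without it. It was higher in 3 of 3 hearts, by 0.44 ± 0.09 on the log2 scale (adjusted p = 0.00134), and the lowest value with Gpnmb exceeded the highest without. The call was lost without replicate 3 (0.0241), without the block (0.0466), with the DESeq2 Wald test (0.0362), with 2 or more Gpnmb UMIs against 0 (0.23) and in macrophages that pass no subtype gate (0.68). At 1000 UMIs per cell the difference turned to -0.10 (adjusted p = 0.837).

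Tfec was at 20.7, 20.3 and 27.3 CPM with Gpnmb and at 14.9, 14.9 and 16.8 CPM without it, again higher in 3 of 3 hearts without overlap (0.61 ± 0.14, adjusted p = 0.00512). That call did not pass without replicate 3 (0.0852), without the block (0.0385), with the DESeq2 Wald test (0.103), with the baseline library added (0.0129), at 1000 UMIs per cell (0.218), with 2 or more Gpnmb UMIs against 0 (0.25) or in macrophages that pass no subtype gate (0.733).

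The other members did not pass, and their hearts differed in direction. Tfeb was at 41.4, 21.3 and 30.9 CPM with Gpnmb and at 32.8, 30.1 and 31.6 CPM without it (0.02 ± 0.14, adjusted p = 0.947). Tfe3 was at 70.4, 57.4 and 63.6 CPM against 66.4, 58.5 and 68.1 CPM (0.04 ± 0.08, adjusted p = 0.838). Bhlhe40 was at 44.1, 22.8 and 26.0 CPM against 54.5, 12.3 and 31.3 CPM (0.01 ± 0.16, adjusted p = 0.969). With Saa3-Arg1 macrophages left out of both sides, an alternative chosen after seeing the data, Bhlhe40 was higher with Gpnmb, by 0.67 (adjusted p = 0.00165).

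**Figure D2:**
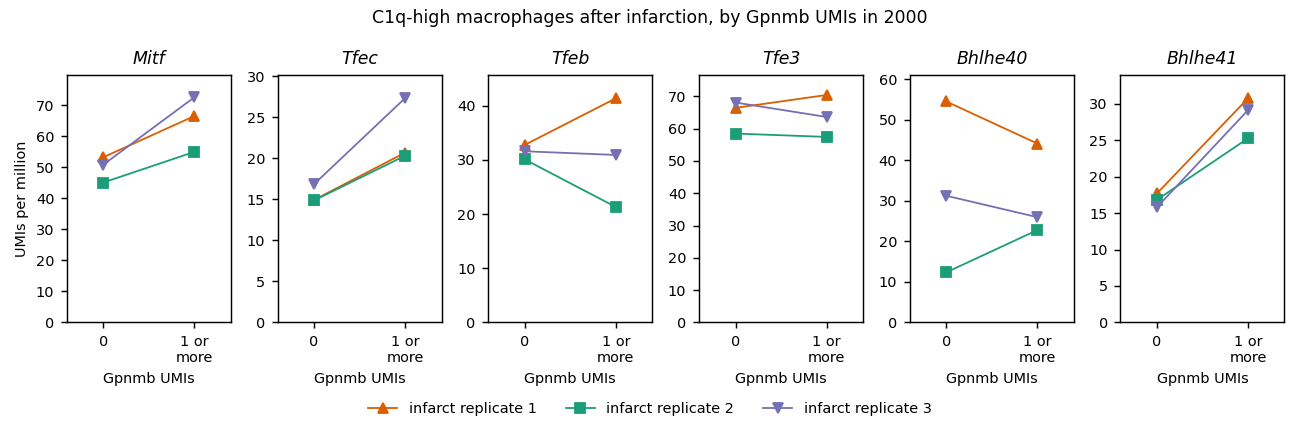
Level of each factor in CPM (linear axis) in C1q-high macrophages of the 3 infarct hearts with 0 or with 1 or more Gpnmb UMIs among 2000, where a line joins the sums of 1 heart. Bhlhe41, Mitf and Tfec rise along all 3 lines, while the lines of Tfeb, Tfe3 and Bhlhe40 differ in direction.

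Reparative-like macrophages made up 76.0%, 80.5% and 75.7% of the cells with Gpnmb and 21.2%, 30.3% and 24.2% of those without it in replicates 1, 2 and 3. Before thinning, cells with Gpnmb were deeper, with medians of 11103, 10458.5 and 10515.5 UMIs against 8680, 8570 and 8857. The 6 cardiomyocyte markers summed to 20.1, 45.5 and 20.6 CPM with Gpnmb and to 42.5, 53.8 and 63.6 CPM without it, with none at 0 on either side. The 5 granulocyte markers summed to 67.6, 82.2 and 59.1 CPM against 60.1, 56.9 and 63.5 CPM, and the 5 fibroblast markers to 32.7 to 39.7 CPM against 35.3 to 38.3 CPM. The 5 B cell markers were lower with Gpnmb in each heart, at 21.8, 18.8 and 29.1 CPM against 30.3, 34.6 and 42.7 CPM. The mitochondrial share was higher with Gpnmb in each heart, at 4.19%, 3.99% and 3.58% against 3.97%, 3.71% and 3.28%. The part of these differences in the result was not tested. In the baseline heart library 60 macrophages had a Gpnmb UMI and 6046 had none. There Mitf was at 148 CPM (17 UMIs) against 62.2 CPM, Bhlhe41 at 34.7 CPM (4 UMIs) against 13.02 CPM, Bhlhe40 at 34.7 CPM (4 UMIs) against 6.20 CPM, and Tfec at 8.69 CPM (1 UMI) against 12.6 CPM. Tfe3 was at 34.7 CPM (4 UMIs) against 97.1 CPM and Tfeb at 17.4 CPM (2 UMIs) against 34.6 CPM.

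With more Gpnmb UMIs per cell, the factors parted. For Bhlhe41 the levels at 0, 1, 2 to 3 and 4 or more Gpnmb UMIs were 17.7, 21.8, 44.0 and 39.5 CPM in replicate 1. They were 16.8, 27.2, 18.5 and 36.0 CPM in replicate 2 and 15.8, 24.9, 34.6 and 35.1 CPM in replicate 3. In each heart the class with most Gpnmb was above the class with none. Mitf was at 53.2, 77.2, 55.9 and 46.7 CPM in replicate 1, at 45.1, 62.1, 40.1 and 61.7 CPM in replicate 2, and at 50.8, 71.7, 73.9 and 73.4 CPM in replicate 3, so that cells with 1 Gpnmb UMI were above those with none in each heart and higher classes were not ordered. In the highest class Tfeb was at 25.1, 15.4 and 12.8 CPM (7, 3 and 4 UMIs), against 32.8, 30.1 and 31.6 CPM at 0. Tfe3 was at 39.5, 51.4 and 31.9 CPM (11, 10 and 10 UMIs), against 66.4, 58.5 and 68.1 CPM. Both were lower in each heart. Tfec was higher in each, at 18.0, 15.4 and 31.9 CPM (5, 3 and 10 UMIs) against 14.9, 14.9 and 16.8 CPM at 0. Bhlhe40 differed in direction by heart. In the highest class the counting intervals of Tfec and Tfeb covered the level at 0 in every heart. Those of Tfe3 did in replicates 1 and 2. The highest class held 102 to 163 cells of a heart. These classes are described without a test.

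The targets and regulators of the family were read in the same comparison, from lists chosen with earlier results of these data known. Of the 38 CLEAR lysosomal and autophagy genes, all were tested, 26 were higher with Gpnmb and 0 lower, beside 5.13% higher over all genes. The median log2 difference was 0.40, beside -0.00 over all genes. At an unadjusted p under 0.05 the counts were 29 and 0, and the DESeq2 Wald test called 21 higher and 0 lower. With library totals 24 passed, with any 1 heart left out 24 to 26 passed, without the block 14 passed, and in macrophages of no subtype gate 4 passed. The share of all genes fell in these fits too. Of 10840 genes, 442 were higher with library totals, 312 with the Wald test and 171 without the block. In macrophages of no subtype gate 27 of 9862 were higher. Atp6v0d2, a subunit of the lysosomal proton pump known from osteoclasts, was at 26.4 ± 8.39 against 4.20 ± 1.497 CPM (SD, n = 3), a log2 difference of 2.68 ± 0.21 (SE, adjusted p = 2.42e-08). The protease genes Ctsd (1.48 ± 0.05) and Ctsb (1.07 ± 0.04) and the α-galactosidase gene Gla (1.05 ± 0.09) followed. Ctsd was at 5877 ± 733 against 2173 ± 78.8 CPM and Ctsb at 7126 ± 433 against 3531 ± 245 CPM. All 4 were higher in 3 of 3 hearts.

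Of 21 genes for the lysosomal control of MiT-TFE proteins, 20 were tested, 6 were higher and 0 lower (median 0.13). At an unadjusted p under 0.05 the counts were 9 and 2. The count of calls was 3 with library totals, 1 without the block and 1 with the DESeq2 Wald test. Counts over all genes in these fits are given above. Fnip2, a folliculin partner, was at 85.7 ± 6.50 against 50.8 ± 3.41 CPM (0.80 ± 0.08, adjusted p = 2.89e-07). Rragc (0.38 ± 0.07, adjusted p = 0.000588), Fnip1 (0.32 ± 0.07, adjusted p = 0.00318) and Lamtor1 (0.28 ± 0.05, adjusted p = 0.00134) were also higher in 3 of 3 hearts. These 3 are the genes of this list whose E-box windows are printed above.

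Of 9 osteoclast genes, 4 were tested and 2 were higher, beside 5.13% over all genes. The count was 1 without the block and 0, with a median of -0.05, in macrophages of no subtype gate. With all UMIs of the divided cells summed, 7 were tested, with 3 higher, 1 lower and a median of -0.24. Over all 12694 genes of that fit, 1430 were higher and 1334 lower. The 2 higher genes were the collagenolytic protease Ctsk, at 10.8 ± 4.07 against 2.63 ± 1.92 CPM (2.10 ± 0.29, adjusted p = 3.46e-05), and the phosphatase Acp5, at 125 ± 6.82 against 80.5 ± 5.97 CPM (0.69 ± 0.08, adjusted p = 1.93e-06). Of 15 clock genes, 13 were tested and 0 passed with edgeR (median -0.09). At an unadjusted p under 0.05, 1 was higher and 3 were lower, the DESeq2 Wald test called 0, and library totals called 1 lower. Of 18 other E-box factors, 17 were tested, with 1 higher and 1 lower, beside 5.13% and 4.42% over all genes. Epas1, a hypoxia-inducible factor, was higher (9.38 ± 1.57 against 4.13 ± 1.33 CPM, 1.249 ± 0.25, adjusted p = 0.00135). Mlxipl, a glucose-responsive factor, was lower (2.77 ± 2.59 against 7.73 ± 6.09 CPM, -1.44 ± 0.31, adjusted p = 0.00266). Both calls were lost with the DESeq2 Wald test, without the block, at 1000 UMIs per cell and in macrophages of no subtype gate, where the list had 0 higher and 0 lower. The Mlxipl call was also lost without replicate 1, without replicate 3 and without Saa3-Arg1 cells, where 0 were lower.

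**Figure D3:**
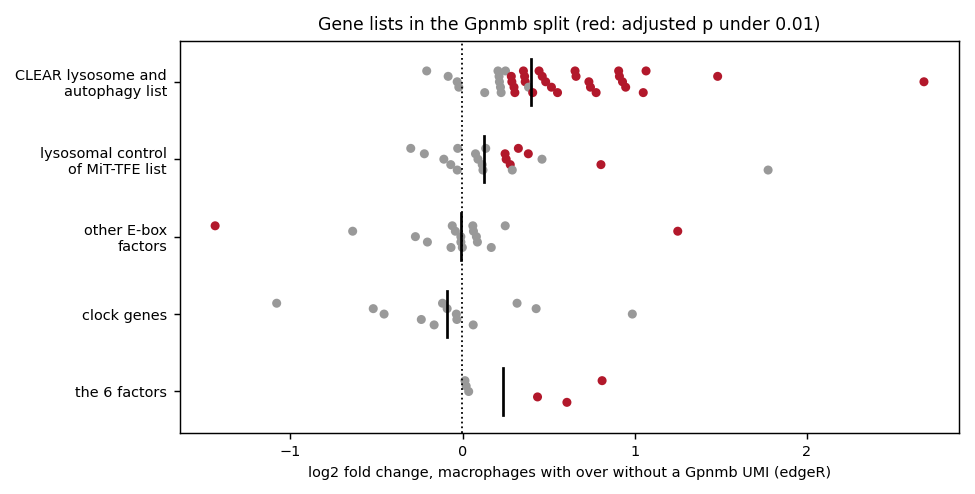
Log2 difference between macrophages with and without a Gpnmb UMI (edgeR) for the genes of 4 lists and the 6 factors, each dot a gene, red when it passed, with a bar at each list's median. The CLEAR list has 26 of 38 genes in red, all to the right of 0, while the clock genes have none.

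Among the CLEAR genes with a promoter, 10 of 13 that held a CACGTG and 10 of 15 that did not were higher with Gpnmb, with medians of 0.55 and 0.30. In the control list the counts were 3 of 5 and 3 of 13, with medians of 0.28 and 0.11. Over all genes tested in the split, 1043 of 8505 with a promoter held the E-box (12.3%). The share was 15.1% of 444 genes that were higher and 11.3% of 364 that were lower. No test was made of these shares.

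Across types, the members were set beside Gpnmb detection, the share of cells with a Gpnmb UMI at 2000 UMIs. Over 40 sums of type and library with at least 50 cells, Pearson's r was 0.85 for Bhlhe41 (Spearman's rho 0.69), 0.53 for Mitf (0.43) and 0.24 for Tfec (0.47). It was -0.16 for Tfeb (-0.43), -0.04 for Tfe3 (0.10) and -0.14 for Bhlhe40 (-0.11). The sums share 4 libraries and their depth, the reparative-like gate uses Gpnmb, and the reparative-like sums, at 27.3% to 46.6% detection, hold the upper end. Within the 18 macrophage sums of the infarct hearts, r stayed at 0.75 for Bhlhe41 (0.41) and was 0.05 for Mitf (-0.23). These values are a description.

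**Figure D4:**
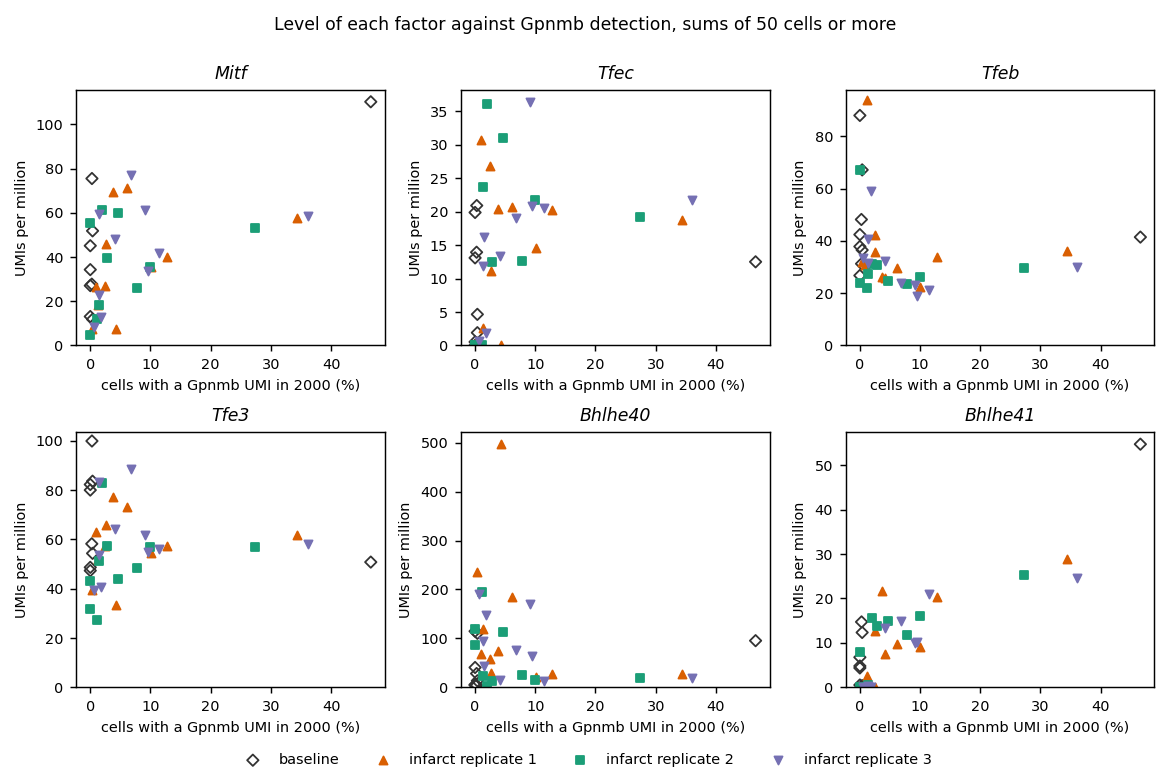
Level of each factor (CPM) against the share of cells with a Gpnmb UMI at 2000 UMIs (percent), each symbol a sum of at least 50 cells of 1 type in 1 library. The 4 reparative-like sums lie at 27.3% to 46.6%, where Bhlhe41 has its highest levels and the other factors do not rank above all other sums, apart from Mitf at baseline.

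Between members over the same 40 sums, on the log2(CPM + 10) scale, Mitf went with Bhlhe41 (r = 0.75), Tfec (0.65) and Tfe3 (0.63), while Bhlhe40 went against Tfe3 (-0.60), Tfec (-0.50) and Mitf (-0.45). Bhlhe40 and Bhlhe41 were at -0.37. Among 5915 other genes, the closest to Bhlhe41 were Pld3 (0.92), Uap1l1 (0.90), Fblim1 (0.89), Igf1 (0.87) and Ftl1-ps1 (0.87). The closest to Mitf were Ski (0.86), Abca1 (0.85), Ninj1, Rab11fip5 and Slc16a6 (0.84 each), and to Tfec Mfsd1 and Cndp2 (0.83 each), Ctsc (0.81), Rab1a and S100a1 (0.80 each). For Tfeb they were Xpr1 (0.85), Usp32 (0.84), Tet2, Ear2 (0.82 each) and Mbp (0.81). For Tfe3 they were Wdfy3 (0.82), Kbtbd2 (0.81), Dusp7, Serinc3 and Mon2 (0.79 each). For Bhlhe40 they were B4galnt1 (0.78), Pmvk (0.74), Ppdpf (0.73), Slc2a6 (0.72) and 9130401M01Rik (0.71).

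Infarct and baseline macrophages were compared last, without a test, because baseline is 1 library. Baseline intervals are exact 95% Poisson intervals and cover counting error only. For Tfeb and Bhlhe40, the B-cell-like cells above do not set the macrophage levels apart from background. Bhlhe40 was at 11.3 CPM at baseline (10.4 to 12.3) and at 49.3, 17.8 and 33.0 CPM in infarct replicates 1, 2 and 3, a 2.94-fold higher mean (33.3 ± 15.7, SD). All 3 hearts lay above baseline and spread widely. The log2 difference was 1.56. It was 2.32 with each cell thinned to 2000 UMIs (6.49 CPM at baseline) and 2.51 as a mean over cells (6.09 CPM at baseline). The hearts held 1140, 88 and 659 Saa3-Arg1 macrophages. Without these cells the difference was 1.01, and in resident-like macrophages alone it was 3.61, with replicates 1 and 3 above baseline and replicate 2 below it. The part of Saa3-Arg1 macrophages in the Bhlhe40 level was not tested. Over all genes with at least 10 CPM, 28.8% differed by 1.5-fold or more with all 3 hearts on the same side, and Bhlhe40 was the member that did.

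The other members differed less. Tfe3 was at 90.4 CPM at baseline (87.7 to 93.2) and at 64.8, 56.9 and 61.5 CPM after infarction, 1.48-fold lower in the mean (log2 -0.57). Mitf was at 64.2 CPM (61.9 to 66.6) and at 52.6, 44.5 and 52.3 CPM (log2 -0.37). Tfec was at 13.5 CPM (12.4 to 14.6) and at 15.5, 16.3 and 18.9 CPM (log2 0.33), and Bhlhe41 at 14.3 CPM (13.2 to 15.4) and at 17.9, 18.4 and 17.1 CPM (log2 0.32). In each of these the infarct hearts lay on 1 side of baseline, as they did for 87.2% of all genes with at least 10 CPM. Tfeb overlapped, at 33.7 CPM (32.0 to 35.4) and 34.4, 29.5 and 29.5 CPM.

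The median gene differed by -0.19 (log2) between infarct and baseline macrophages on this scale, by 0.10 with TMM factors and by 0.11 with DESeq2 size factors. Relative to the median gene, Tfe3 was at -0.38, Mitf at -0.18, Tfeb at 0.08, Bhlhe41 at 0.51, Tfec at 0.52 and Bhlhe40 at 1.75. Tfeb, at -0.11 on the CPM scale, turned to 0.17 with TMM factors.

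**Figure D5:**
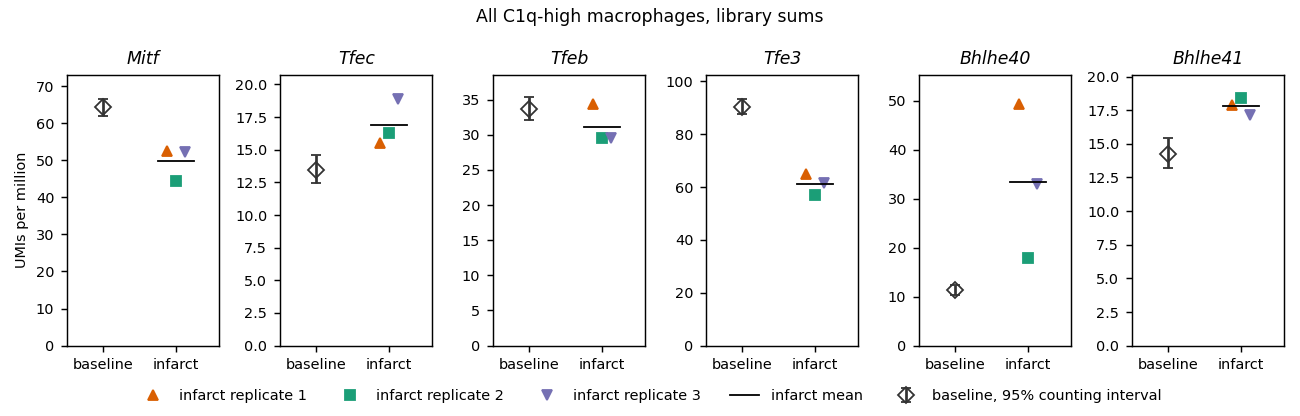
Level of each factor (CPM, linear axis) in all C1q-high macrophages, with the baseline library and its 95% counting interval beside the 3 infarct hearts, whose mean is the bar. Tfe3 and Mitf lie below baseline and Bhlhe40, Tfec and Bhlhe41 above it in all 3 hearts, while Tfeb overlaps it.

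Within types the baseline library showed its highest Mitf (110.2 CPM, 92.8 to 130) and Bhlhe41 (54.7 CPM, 42.7 to 69.1) in its 88 reparative-like macrophages, as the infarct hearts did for Bhlhe41. Baseline resident-like macrophages, at 3041 cells the best measured type there, had 75.5 CPM of Mitf, 99.9 CPM of Tfe3, 20.9 CPM of Tfec, 14.7 CPM of Bhlhe41 and 4.22 CPM of Bhlhe40 (3.41 to 5.16). Other C1q-high macrophages at baseline had 4.65 CPM of Tfec (3.75 to 5.69), against 11.1, 12.4 and 13.4 CPM in the infarct hearts.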

How the data were processed

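CSF1R+ EGFP cells of 4 libraries were profiled with 10x Genomics 3' chemistry. The authors deposited UMI counts per gene and cell, made with Cell Ranger on mm10. The labels give version 3.0.1 and the file header 3.1.0. The study analysed fewer cells than its stated filter leaves here.

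Barcodes outside 500 to 40000 UMIs or with 200 genes or fewer were dropped, which left 10117 to 10782 cells per library, and mitochondrial genes were left out of sums. Cells were gated by marker lists, with at least 2 list genes present. No doublet caller was run, and an alternative left out the 5% of cells with the most UMIs. Counts were summed per library and type and tested with edgeR 4.0.16 (quasi-likelihood, TMM, filterByExpr) in R 4.3.3, with the library as a block because the paired sums belong to 1 heart. Benjamini-Hochberg adjustment ran over all genes, at a threshold of 0.01. Types with under 20 cells in a library were not tested. For the Gpnmb comparison, macrophages were thinned to 2000 UMIs with a fixed seed, and Gpnmb was not tested. Baseline is 1 library, so that it was compared without a test. The 3 infarct hearts are separate animals.

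Alternatives were DESeq2 1.42.0 (Wald test and size factors), library totals, no filter, no block, each heart left out, other depths, stricter gates and other comparators. The code was tested on simulated data. Named genes are the 6 members, up to 4 genes per list with the highest absolute change among those that passed in the same direction in all 3 hearts, and the 5 genes nearest each member in pattern. Members and lists were chosen with earlier results of these data known. Poisson and binomial intervals cover counting error only. Promoter sequences are from RefSeq GRCm38.p6, and gene positions from GENCODE on GRCm38. No promoter entry matched Bhlhe40. Chromosome 18 was left out of the promoter search. A short list of other macrophage regulators is not reported here.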

Additional observations from a re-analysis of the deposited data

Results flagged for a closer look

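For each of the 6 factors, 1 comparison had the baseline library on the other side of 0 from all 3 infarct hearts. Baseline is 1 library, so the difference was not tested in any of them.

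Bhlhe40 in reparative-like macrophages had a log2 ratio to the other myeloid cells of 1.98 at baseline, from 122 UMIs in 88 cells, and of -1.48 to -0.38 in the infarct hearts. Its level there was 95.4 CPM at baseline and 21.9 CPM in the infarct mean.

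Bhlhe41 in other C1q-high macrophages had a log2 ratio of 0.26 at baseline (247 UMIs) and of -0.48 to -0.43 after infarction. Tfeb in the same cells had -0.12 at baseline (730 UMIs) and 0.10 to 0.18 after infarction.

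The remaining cases rest on few UMIs or small ratios. Mitf in Saa3-Arg1 macrophages had -0.50 at baseline (8 UMIs in 11 cells) and 0.33 to 0.66 after infarction. These 11 baseline cells had 4079 CPM of Prg4 and 1865 CPM of Alox15, genes outside the gate. The infarct cells had 63.1 to 145 CPM and 24.6 to 137 CPM. Whether the gate holds like cells at baseline and after infarction was not tested. Tfec between macrophages with and without Gpnmb had -0.53 at baseline (1 UMI) and 0.45 to 0.70 after infarction. Tfe3 in proliferative-like macrophages had 0.0039 at baseline (120 UMIs) and -0.22 to -0.14 after infarction.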

How the results depend on the processing

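Infarct against baseline is given on the log2 scale. With TMM factors and DESeq2 size factors, the difference was -0.084 and -0.075 for Mitf, 0.61 and 0.62 for Tfec, 0.17 and 0.18 for Tfeb, -0.28 and -0.27 for Tfe3, and 0.61 and 0.62 for Bhlhe41. Over all cells it was -0.20 for Mitf, 0.56 for Tfec, -0.30 for Tfeb, -0.42 for Tfe3, 0.43 for Bhlhe40 and 0.48 for Bhlhe41. Resident-like macrophages alone, an alternative chosen after seeing the data, had -0.13 for Mitf, -0.27 for Tfe3, 3.61 for Bhlhe40 and 0.24 for Bhlhe41. For Bhlhe40 it was 2.32 at 2000 UMIs per cell, 2.51 as a mean over cells and 2.40 in macrophages without Gpnmb, and for Bhlhe41 0.47 at 2000 UMIs. The cause was not tested.

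In the Gpnmb comparison, without the replicate block that pairs the 2 sums of a heart, the difference was 0.43 for Mitf, 0.61 for Tfec and -0.025 for Bhlhe40, and 271 genes passed in place of 1035. The Wald test gave 0.43 for Mitf, 0.60 for Tfec (both calls lost) and 533 genes. At 1000 UMIs Mitf was at -0.10, Tfec at 0.53 and Bhlhe40 at -0.31, with 660 genes, and at 4000 UMIs Tfe3 was at -0.11, with 1900 genes. With 2 or more Gpnmb UMIs Mitf was at 0.28, Tfec at 0.41 and Tfeb at -0.045. In macrophages of no subtype gate (chosen after seeing the data) Mitf was at 0.44, Tfec at 0.80 and Bhlhe41 at 0.71, all 3 calls lost, with 101 genes. With all UMIs summed, Tfe3 was at -0.023 and Bhlhe40 at -0.014, with 2764 genes. Adding baseline put Tfec at 0.59, its call lost. Library totals put Tfeb at -0.030, Tfe3 at -0.015 and Bhlhe40 at -0.042, no filter put Tfeb at -0.0051 and Bhlhe40 at -0.012, and leaving out cells over 10% mitochondrial UMIs put them at -0.0067 and -0.078. Without Saa3-Arg1 cells Tfeb was at -0.022 and Bhlhe40 at 0.67. With 1 heart left out, Mitf ran from 0.35 to 0.49, Tfec from 0.50 to 0.66, Tfeb from -0.19 to 0.21, Tfe3 from -0.025 to 0.077 and Bhlhe40 from -0.23 to 0.22.

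Over types, cells were thinned to 2000 UMIs and gated again on the thinned counts. Then 22 pairs of member and type passed, against 34, with 13 calls lost and 1 gained. Of pairs of gene and type, 18650 passed, against 32174. No pair of member and type that passed changed direction. Of pairs that did not pass, thinning turned Mitf in granulocyte-like (0.082) and interferon-response-like cells (0.18), Tfeb in type 2 dendritic-like (0.23), classical monocyte-like (-0.11), interferon-response-like (0.048) and reparative-like cells (-0.15), Tfe3 in reparative-like (-0.0064), and Bhlhe40 (-0.17) and Bhlhe41 (0.17) in resident-like macrophages. Library totals turned Tfeb in granulocyte-like (0.091), Tfe3 in interferon-response-like (-0.069), Saa3-Arg1 (0.039) and reparative-like (-0.031), and Bhlhe41 in resident-like macrophages (0.099). Doubled gates turned Bhlhe41 in resident-like (0.092), Tfe3 in reparative-like (-0.041) and Mitf in other C1q-high macrophages (0.10). Without the deepest 5% of cells Tfec in proliferative-like (0.015), Tfe3 in Saa3-Arg1 (0.018) and Bhlhe41 in resident-like macrophages (0.066) turned. No replicate block turned Tfe3 in Saa3-Arg1 macrophages (0.0073), and the Wald test Bhlhe40 in resident-like macrophages (-0.39). With all remaining macrophage types pooled as comparator, Bhlhe40 turned in proliferative-like macrophages (0.20). With 1 heart left out, 6 such pairs changed direction. Tfeb ran from -0.095 to 0.21 in classical monocyte-like and from -0.16 to 0.029 in interferon-response-like cells, Bhlhe40 from -0.72 to 0.42 in proliferative-like and from -0.38 to 0.52 in resident-like, Tfe3 from -0.20 to 0.097 in Saa3-Arg1 and Bhlhe41 from -0.24 to 0.069 in resident-like macrophages.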

Other observations

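A group of cells high in Ctsk and Acp5, genes of the osteoclast programme that Mitf drives, was noticed after the values were seen and is described without a test or a cell type name. With at least 20 UMIs of the osteoclast list per 10000 from at least 3 of its genes, 54 such cells were in infarct replicate 2, 3 in replicate 1, 4 in replicate 3 and 0 at baseline. In replicate 2 they had 8806 CPM of Ctsk, 6575 CPM of Acp5, 1048 CPM of Atp6v0d2 and 478 CPM of Nfatc1, and 333 CPM of C1qa. Calcr was at 0. Ctsk, Acp5 and Nfatc1 are in the list that picked the cells, so their levels are high by selection. The 54 cells had a median of 28650 UMIs, against 8469.5 over all cells of that heart. Their mean mitochondrial share was 7.00%, against 4.57%. A need for 3 list genes favours deep cells, and doublets were not called. Among the members, they had 147 CPM of Mitf, 185 CPM of Bhlhe40, 37.9 CPM of Tfec, 29.4 CPM of Tfe3, 10.7 CPM of Tfeb and 2.86 CPM of Bhlhe41. Mitf in every gated type of that heart was at 61.4 CPM or less.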
